A study of Mus musculus with 7 samples.

Results

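The genes described are 8 members of the interleukin 2 (IL2) receptor family of cytokine receptors, namely the receptor chain genes Il2ra, Il2rb, Il15ra, Il4ra, Il21r, Il7r and Il9r and the ligand gene Il15. They were chosen by name, and each was read from its only probe set with a single gene symbol, so that all 8 were among the 19752 genes tested. RNA came from natural killer (NK) cells, lymphocytes of the innate immune system that lyse virus-infected and tumour cells, out of the spleens of 6-week-old male mice on the C57BL/6 background. The cells had been enriched with an EasySep kit by removal of other cell types, with NK1.1 given as their marker, and were kept for 8 h in culture either with IL2 at 250 U/ml (4 arrays, replicates 1 to 4) or without cytokine (3 arrays, replicates 2 to 4). Expression was measured on Affymetrix Mouse Gene 1.0 ST arrays, 1 RNA sample each, to see how NK cells respond to IL2. The titles of replicates 3 and 4 give the time in culture and those of replicates 1 and 2 do not. No label ties a replicate to a mouse or a separate culture, and the p-values therefore reflect the spread among these RNA samples alone, which may be technical.

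IL2 and interleukin 15 (IL15) act through receptors built from shared parts. The beta chain, encoded by Il2rb, and a common gamma chain carry the signal for both cytokines, and a private alpha chain (Il2ra for IL2, Il15ra for IL15) raises the affinity for its own ligand. IL4, IL7, IL9 and IL21 pair their own chains with the same gamma chain, and the receptors signal through JAK kinases and STAT factors, with STAT5 as the main factor for IL2, IL15 and IL7. Resting NK cells carry much beta chain and little alpha chain, and depend on IL15 for survival.

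With IL2, the genes of the 2 private alpha chains and of the shared beta chain of the IL2 and IL15 receptors rose, namely Il2ra (4.01-fold), Il2rb (2.78-fold) and Il15ra (1.88-fold). The gene of the IL7 receptor chain, Il7r, fell by 1.71 on the log2 scale and stood 3.28-fold higher without IL2. The chain of the IL9 receptor, Il9r, was lower and the IL4 receptor chain, Il4ra, higher in every IL2 array than in every untreated array, but neither passed the test, and the groups overlapped for Il21r and Il15. A gene was called at a Benjamini-Hochberg adjusted p under 0.05 in limma, which called 2.08% of all genes higher and 0.901% lower. Of the 8 members, 3 were called higher and 1 lower, and the median log2 difference was 0.45 against -0.01 for all genes. Since the members were picked with these results known, the counts describe them and do not test the family as a group.

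The upstream sequences of the member with the largest rise and the member that fell are shown for reference, since these genes moved in opposite directions on the same arrays. Each is the 250 bases before the gene's start in RefSeq, build GRCm38.p6, for Il2ra chr2:11642542-11642791 on the plus strand and for Il7r chr15:9529877-9530126 on the minus strand, written 5′ to 3′ with matches to the motifs searched in capitals.
Il2ra: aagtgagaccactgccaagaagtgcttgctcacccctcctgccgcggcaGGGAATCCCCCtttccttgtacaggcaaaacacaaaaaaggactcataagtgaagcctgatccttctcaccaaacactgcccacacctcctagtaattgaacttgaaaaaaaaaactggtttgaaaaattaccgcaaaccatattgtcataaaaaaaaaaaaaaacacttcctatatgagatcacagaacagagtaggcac
Il7r: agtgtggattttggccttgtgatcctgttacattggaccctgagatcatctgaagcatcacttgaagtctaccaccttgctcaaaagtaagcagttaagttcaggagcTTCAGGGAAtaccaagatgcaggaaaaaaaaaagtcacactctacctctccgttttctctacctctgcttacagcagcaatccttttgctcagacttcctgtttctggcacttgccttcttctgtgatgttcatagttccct
The motifs, searched on both strands, were the STAT site TTCNNNGAA and its form with a spacer 1 base longer, the AP-1 site TGANTCA, the GATA site AGATAA, the core of the interferon-stimulated response element and the NF-kappaB consensus. The capitals of Il2ra are 2 overlapping NF-kappaB matches, one on each strand, which begin 201 and 200 bases before the start. NF-kappaB matches occurred in 3.9% of 32841 windows of this length. The capitals of Il7r are a TTCNNNGAA match that begins 142 bases before the start, and 7.02% of windows held such a match. Of the other windows of members, the second of Il15ra held an AP-1 match (in 6.75% of windows), that of Il9r held GATA matches on both strands (in 9.99%), and those of Il4ra, Il21r and the first of Il15ra held no match to these letters. Windows were found for 6 of the 8 members. In the RefSeq order of protein-coding genes, Il2ra and Il15ra are direct neighbours on chromosome 2, and Il4ra and Il21r are direct neighbours on chromosome 7.

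**Figure D1:**
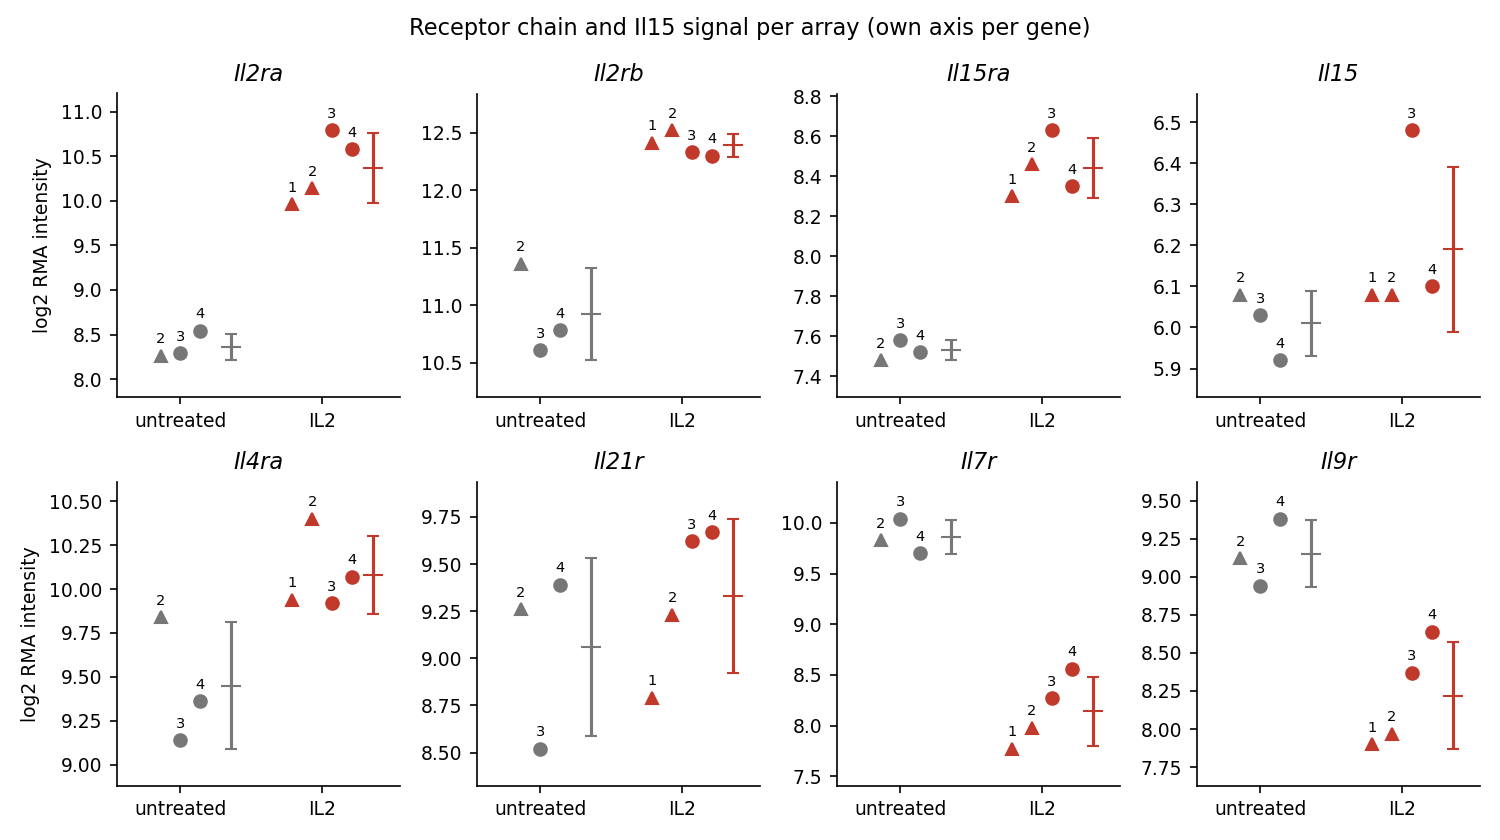
Log2 RMA intensity of the 8 genes in each array (vertical axis, its own range per gene), with untreated arrays in grey and IL2 arrays in red, numbered by replicate, with circles for titles that give the time and triangles for titles that do not. Dashes with bars are the mean and SD of 3 untreated and 4 IL2 arrays, and the groups lie apart for every gene except Il15 and Il21r.

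The alpha chain gene Il2ra had linear RMA intensities of 306, 314 and 372 in untreated replicates 2, 3 and 4, and of 996, 1126, 1776 and 1531 in IL2 replicates 1 to 4. All IL2 arrays lay above all untreated arrays, with IL2 replicates 3 and 4 above replicates 1 and 2. The log2 mean went from 8.36 ± 0.15 (SD, n = 3) to 10.37 ± 0.39 (n = 4), a difference of 2.01 (SE 0.20, 95% interval 1.53 to 2.48, limma adjusted p = 0.00282), and 99.7% of all genes had a lower difference. The nearest IL2 and untreated arrays were 1.42 apart on the log2 scale.

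The beta chain gene Il2rb, which encodes the signalling chain shared by IL2 and IL15, had linear intensities of 2637, 1558 and 1759 in untreated replicates 2, 3 and 4. With IL2 they were 5429, 5872, 5150 and 5049 in replicates 1 to 4, a narrow range in which replicates 1 and 2 were the higher ones. On the log2 scale the mean went from 10.92 ± 0.40 to 12.39 ± 0.10, a difference of 1.47 (SE 0.17, 95% interval 1.07 to 1.88, limma adjusted p = 0.00554). Untreated replicate 2 was the highest of its group and lay 0.94 below the lowest IL2 array.

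Il15ra, whose product binds IL15 and presents it to cells that carry the beta and gamma chains, had linear intensities of 179, 191 and 184 in the untreated arrays and of 315, 353, 397 and 326 in the IL2 arrays. The untreated arrays were close together, and every IL2 array was above them. The log2 difference was 0.91 (SE 0.10, 95% interval 0.68 to 1.13, limma adjusted p = 0.00368). Of the 3 genes that rose, this one had the smallest difference and the smallest SE.

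The ligand gene Il15 had linear intensities of 67.8, 65.4 and 60.5 in the untreated arrays and of 67.8, 67.8, 89.2 and 68.5 in the IL2 arrays. Its signal was below the median of all probes on each of the 7 arrays, and untreated replicate 2 and IL2 replicates 1 and 2 held exactly equal values, which lowers the measured spread. The groups overlapped, and the log2 difference of 0.17 (95% interval -0.10 to 0.45, limma adjusted p = 0.629) did not pass the test. Of the other ligands of the family, Il2, Il4, Il7, Il9, Il13, Il21 and Tslp, limma called 0 of 7 (unadjusted p under 0.05 in 0). Among them the difference farthest from 0 was -0.12 (SE 0.11) for Il7, the stromal cytokine bound by the product of Il7r, and only Il13 among the 7 had a signal above the array median on any array.

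Il7r, which encodes the alpha chain of the IL7 receptor of naive and memory T cells and innate lymphoid cells, had linear intensities of 909, 1054 and 832 in untreated replicates 2, 3 and 4. With IL2 they were 218, 253, 309 and 377 in replicates 1 to 4. Every IL2 array lay below every untreated array, by at least 1.14 on the log2 scale. The log2 mean went from 9.86 ± 0.17 to 8.14 ± 0.34, a difference of -1.71 (SE 0.19, 95% interval -2.15 to -1.27, limma adjusted p = 0.00415), and only 0.2% of all genes had a lower difference.

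Il9r, the private chain of the IL9 receptor, had linear intensities of 555, 492 and 667 in the untreated arrays and of 239, 251, 331 and 398 in the IL2 arrays. The groups did not overlap, and IL2 replicate 4 came closest to the untreated arrays, 0.30 below the lowest on the log2 scale. The log2 difference was -0.93 (SE 0.20, 95% interval -1.38 to -0.47), with a limma adjusted p of 0.0548 that misses the threshold. It passed once the arrays were quantile normalized a second time (-1.05, limma adjusted p = 0.00255), with dim genes below the median signal left out (limma adjusted p = 0.0246) and with title style as a block (-0.87, limma adjusted p = 0.035). It also passed with the replicate number as a block (-0.82, limma adjusted p = 0.0435), with arrays centred on their medians (limma adjusted p = 0.0462) and without IL2 replicate 4 (-1.07, limma adjusted p = 0.0481). In 13 of 19 alternatives Il9r did not pass. Among these were the fits without any other 1 array (limma adjusted p of 0.0913 to 0.214) and with array quality weights (limma adjusted p = 0.0901). The limma adjusted p was 0.0527 in eBayes with trend and robust, 0.0541 for the mean of all probes, 0.0561 for all probes and 0.0619 with an offset. Over the arrays with the time alone the difference was -0.66 (limma adjusted p = 0.205), and over the others it was -1.18.

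Il4ra encodes the alpha chain that binds IL4 and takes part in both IL4 receptors and in the IL13 receptor. Its linear intensities were 916, 566 and 655 in the untreated arrays and 980, 1347, 967 and 1079 in the IL2 arrays. The lowest IL2 array lay only 0.08 above untreated replicate 2 on the log2 scale, and the difference of 0.63 (SE 0.19, 95% interval 0.20 to 1.07, limma adjusted p = 0.158) did not pass the test.

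Il21r, the chain for IL21, had linear intensities of 614, 367 and 670 in the untreated arrays and of 444, 600, 788 and 817 in the IL2 arrays. The groups overlapped widely, with a log2 difference of 0.27 (SE 0.28, 95% interval -0.36 to 0.91, limma adjusted p = 0.767). The interval holds differences in both directions, so that these arrays do not settle a direction for this gene. Of the neighbours in the genome, Il2ra and Il15ra thus both rose, while neither Il4ra nor Il21r passed the test.

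In total 6 of the 8 genes had groups that did not overlap, 4 higher and 2 lower with IL2, where 6.25% of all genes were higher and 3.38% lower in this way.

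**Figure D2:**
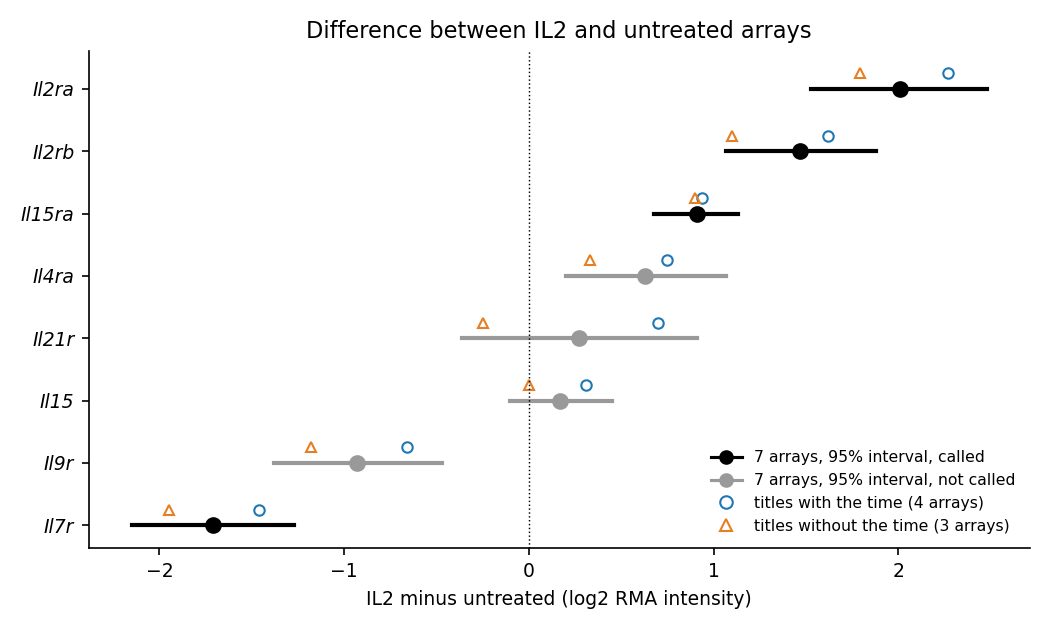
Difference between IL2 and untreated arrays in log2 RMA intensity (horizontal axis) for the 8 genes (rows), as the value over 7 arrays with its 95% interval from limma, in black where the adjusted p was under 0.05. Open circles and triangles are the differences within the arrays whose titles do and do not give the time, and Il21r is the gene whose open symbols lie on opposite sides of 0.

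The size of the differences was not the same within the 2 title styles. Among arrays whose titles give the time (2 IL2, 2 untreated) the log2 difference was 2.27 for Il2ra, 1.62 for Il2rb, 0.94 for Il15ra, -1.46 for Il7r and -0.66 for Il9r. Among those without it (2 IL2, 1 untreated) the values were 1.79, 1.10, 0.90, -1.95 and -1.18 in the same order. Both styles thus gave the same direction for these 5 genes, with the differences of Il2ra and Il2rb smaller, and those of Il7r and Il9r farther from 0, in the second. Il4ra had 0.75 and 0.33, Il15 0.31 and 0.00, and Il21r 0.70 and -0.25, so that Il21r pointed in opposite directions. The test of the difference between styles, limma's interaction term, called 0 of the 19752 genes (2539 at an unadjusted p under 0.05) and gave adjusted p-values of 0.386 to 0.91 for the 8 members, of which 1, Il2rb, had an unadjusted p under 0.05 (0.0193). Within the IL2 group, both arrays with the time lay above both without it for 5 members (Il2ra, Il15, Il21r, Il7r and Il9r), below them for Il2rb and on neither side for Il15ra and Il4ra. Over all genes this was so for 36.1% (above) and 12.4% (below).

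With each array left out in turn, Il2ra, Il2rb, Il15ra and Il7r stayed called in all 7 fits, with limma adjusted p-values of at most 0.0235, 0.0431, 0.0266 and 0.0277. Over the 4 arrays with the time alone, Il15ra (0.94, limma adjusted p = 0.0875) and Il7r (-1.46, limma adjusted p = 0.0785) no longer passed, and over the other 3 arrays limma called 0 genes in all, with 2630 at an unadjusted p under 0.05, 5 of them members.

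Other genes of the pathway were taken from lists written from general knowledge, with earlier results of these data known. Their counts therefore describe the lists and do not test them as groups. Of the partner chains, Il13ra1, which joins Il4ra in the IL13 receptor, fell, with a log2 mean of 9.08 ± 0.08 without and 7.96 ± 0.26 with IL2, a difference of -1.12 (SE 0.14, limma adjusted p = 0.00733), and 2 others (Il13ra2 and Crlf2) did not pass. The gene of the common gamma chain was not analysed here. The difference of Il13ra1 was -0.91 within the arrays with the time (limma adjusted p = 0.103) and -1.38 within the others (limma adjusted p = 0.356). Beside the 1 call among 3 partner chains, limma called 0 of 16 JAK, STAT and adaptor genes (4 at an unadjusted p under 0.05). Syk, a kinase reported to bind the beta chain, had the largest difference of these, -0.71 (SE 0.16, limma adjusted p = 0.065). It passed after a second quantile normalization (limma adjusted p = 0.00419, with 3 genes of this list then called lower), with dim genes left out (limma adjusted p = 0.0322) and without untreated replicate 3 (limma adjusted p = 0.024), and its adjusted p was 0.0565 to 0.402 in the other fits.

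Of these lists, the STAT5 targets had the largest share of genes called (11 of 16). Among the inhibitors it was 4 of 12, the same share as the 1 of 3 partner chains. Of 12 inhibitors of receptor signalling, 4 rose and 0 fell, led by the feedback inhibitors Socs1 (2.84, SE 0.09, limma adjusted p = 1.73e-05) and Cish (1.94, SE 0.19, limma adjusted p = 0.00215), which STAT factors induce and which then restrain the receptors. The count was 2 without any 1 array other than IL2 replicate 1, and both Socs1 and Cish stayed called with each array left out. Of 16 STAT5 target genes, 11 rose and 0 fell, where limma called 2.08% of all genes higher and 0.901% lower. This list too was written with earlier results known, so the count describes it and does not test it. The effector genes Gzmb (granzyme B, 5.07, SE 0.28) and Ifng (interferon-gamma, 3.47, SE 0.14) were in front. The summed NK cell markers were higher on the same arrays (7026 to 11010 without and 22810 to 28080 with IL2), Prf1 is in both lists, and the part of the markers in this count was not tested. The median log2 differences were -0.01 for the ligands, 0.00 for the partner chains, 0.01 for the JAK, STAT and adaptor genes, 0.56 for the inhibitors and 1.40 for the STAT5 targets, beside -0.01 for all genes. Over the 4 arrays with the time alone, 6 of the STAT5 targets were called.

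**Figure D3:**
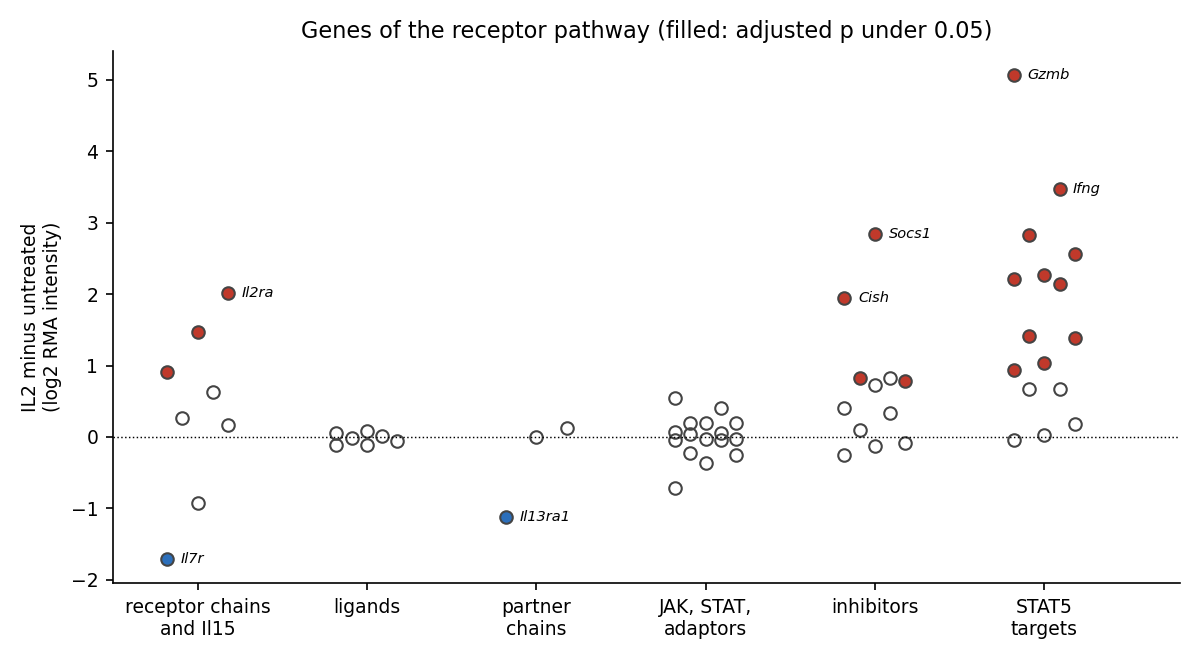
Difference between IL2 and untreated arrays in log2 RMA intensity (vertical axis) for each measured gene of the receptor pathway, grouped by role (horizontal axis), with filled points for genes called in limma (red higher, blue lower) and up to 2 of the called genes named in each group. Filled points stand in the receptor, partner chain, inhibitor and STAT5 target groups, and none among the ligands or the JAK, STAT and adaptor genes.

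The defining NK markers Ncr1 and Klrb1c were above the array median on all 7 arrays, and so were the T cell gene Cd3e, the B cell gene Cd79a and the myeloid gene Lyz2. Receptor genes of this family are also expressed by those cells, and in RNA of mixed cells fewer cells of a type and less RNA per cell cannot be told apart. The summed linear signal of 15 macrophage and monocyte markers was 13290 to 14790 in the untreated arrays and 4448 to 6121 in the IL2 arrays. Of these markers 9 fell, 0 rose and 6 were not called. Of those 6, Itgam (log2 difference -0.72) was lower and C1qb (0.36) higher in every IL2 array than in every untreated array. The groups overlapped for Fcgr1 (0.23), Ccr2 (-0.01), C1qa (-0.06) and C1qc (0), so these markers did not move alike. The summed signal of 14 NK cell markers was 7026 to 11010 without and 22810 to 28080 with IL2, and 7 rose, 0 fell and 7 were not called. Among those not called, Klrk1, Gzma and Eomes were higher in every IL2 array than in every untreated array. The groups overlapped for Klrd1 (log2 difference 0.09), Klra8 (0.37), Klre1 (0.46) and Cma1 (-0.06). For the defining markers Ncr1 and Klrb1c, which rose, the log2 difference was 2.18 and 1.70, so the NK cell markers did not move alike. The macrophage and NK cell sums moved with the falls of Il7r and Il13ra1 and the rises of Il2ra, Il2rb and Il15ra, and their part in these results was not tested.

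For T cells, the sum of 11 markers was 2516 to 3891 in the untreated and 2237 to 3863 in the IL2 arrays, ranges that overlap, with limma calling 0 of 11 (0 at an unadjusted p under 0.05). In the IL2 arrays it was 2237 and 2416 in replicates 1 and 2 and 3863 and 3788 in replicates 3 and 4, the same arrays in which Il7r, Il9r, Il21r and Il2ra were higher. The sums for macrophages and monocytes (4448 and 4923 against 5501 and 6121), neutrophils, dendritic cells, regulatory T cells, innate lymphoid cells and red blood cells were also higher in both of these arrays than in replicates 1 and 2, the NK cell sum was lower in both, and the B cell sum was neither. Of 3 regulatory T cell markers, in which Foxp3 was the defining one, 0 were called (0 at an unadjusted p under 0.05), and their sum was 383 to 450 without and 373 to 522 with IL2. For B cells, 1 of 9 markers fell (Fcer2a, -0.98, named after its value was seen) and 0 rose, with 6 at an unadjusted p under 0.05 and 0 of the 9 differences positive, and the sum was 15590 to 17720 without and 13200 to 13990 with IL2. Dendritic cells had 1 of 8 markers lower (4 at an unadjusted p under 0.05), with sums of 2060 to 2575 and 1537 to 1811, and neutrophils 1 of 9 (6 at an unadjusted p under 0.05, 0 of 9 positive), with sums of 8594 to 11450 and 4956 to 6684. For the innate lymphoid cells of types 2 and 3, 0 of 3 measured markers were called (1 at an unadjusted p under 0.05), with sums of 397 to 722 and 559 to 771. The only measured marker of red blood cells, Alas2, was not called (-0.09). The part of any of these in the values of the receptor genes was not tested.

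**Figure D4:**
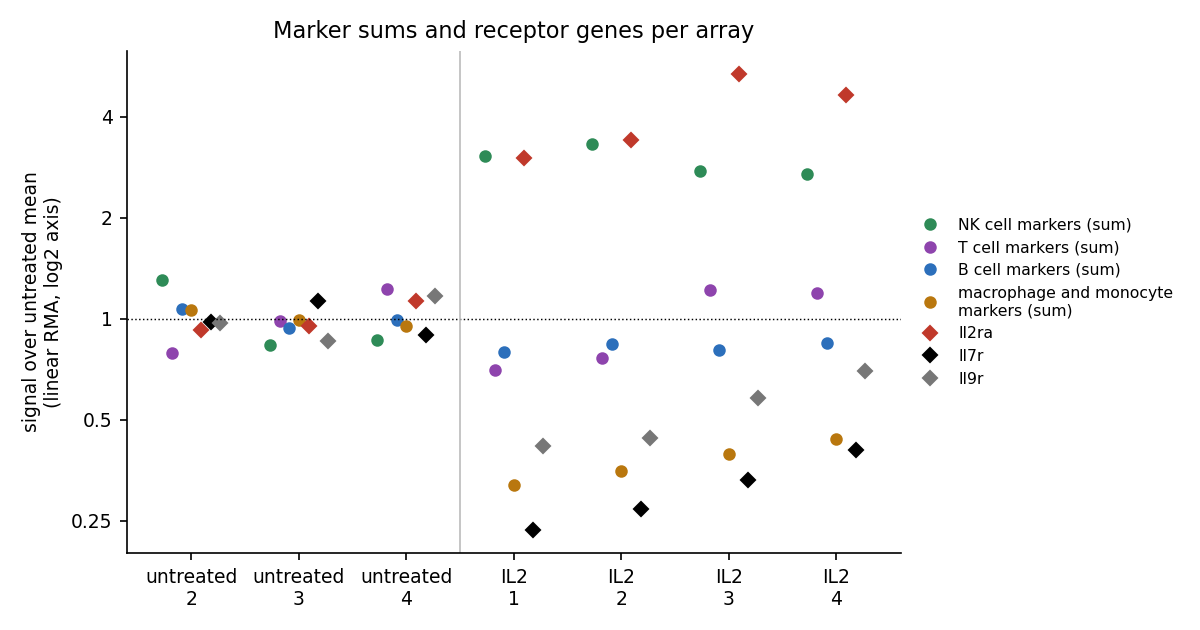
Linear RMA signal in each array over the mean of the 3 untreated arrays (vertical axis, log2-spaced), for the summed markers of 4 cell types (circles) and for Il2ra, Il7r and Il9r (diamonds), with the dotted line at 1. In the IL2 arrays Il7r lay between 0.234 and 0.404, the macrophage and monocyte sum between 0.318 and 0.438, Il9r between 0.418 and 0.697 and Il2ra between 3.01 and 5.37.

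The genes whose log2 values ran closest to a member over the 7 arrays were sought among 1752 genes whose mean signal reached the median of all genes and whose log2 range was at least 1. All of these arrays share the difference between the groups, and the correlations are a description. For Il2ra they were Cd69 (Pearson's r = 0.993), an early activation antigen, the chemokine gene Xcl1 (0.993) and Myc (0.991). For Il2rb they were Fgl2 (0.999), Irgm1 (0.998) and Prf1 (0.995), the gene of the pore-forming protein perforin, and for Il15ra Cd69 (0.994), Osm (0.989) and Ifng (0.988). These 8 genes all rose. Il7r ran closest to the lysozyme gene Lyz2 (0.993), the scavenger receptor gene Cd36 (0.993) and Tmem176a (0.993), which all fell, and Il9r to Arrb1 (0.996), Nfam1 (0.994) and Slc16a3 (0.994), of which the last 2 fell. Il4ra ran closest to St3gal4 (0.996), Lat2 (0.990) and Glipr2 (0.986), and Il21r to Gmeb2 (0.990), Sdhaf2 (0.981) and Bag1 (0.980), and none of these 6 passed the test. The nearest to Il15 was Phf11d (0.909), followed by Rfc3 (0.849) and Cox15 (0.828), which did not pass either.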

How the data were processed

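The authors deposited 1 linear intensity per probe set and array; per the submitters' processing notes it came from RMA in Affymetrix Power Tools. Versions, settings and the set of arrays normalized together are not given in the sources used here. Median intensities were 121 to 131. Of 24922 probe sets, 21425 had 1 gene symbol, and the brightest of each gene was used (19752 genes, no signal filter). For the 8 members the Entrez identifier and symbol matched the RefSeq table.

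Groups came from the sample titles. Log2 values with no offset were fitted in limma 3.58.1 (R 4.3.3; statmod 1.5.0 for array weights) with group as the only factor, eBayes with default settings, Benjamini-Hochberg over all genes and a threshold of 0.05. The SE and 95% interval are those of the moderated fit (7.68 degrees of freedom), and ± is the SD over arrays. The number of arrays limits the precision. Groups were apart when all IL2 arrays lay above, or all below, all untreated arrays. The script was checked on simulated data.

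The members and lists (5 of pathway genes, 9 of cell type markers) were chosen with earlier results of these data known. Named were all members, from each pathway list the 2 called genes that changed most (or, with no call, the 1 with the largest difference), for each member the 3 genes most like it, and a few markers. The motifs were chosen after the values had been seen. Alternatives were the replicate number or the title style as a block, a filter at the median signal, quantile normalization again, median centring, eBayes with trend and robust, array weights, the mean of all probes, all probes, an offset of 16, and leaving out each array. Fits within each title style were added after seeing the data; in that of 3 arrays the lone untreated array is assumed to vary like the IL2 arrays.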

Additional observations from a re-analysis of the deposited data

Results flagged for a closer look

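Il15 in IL2 replicate 3 had a linear intensity of 89.2, while the other 3 IL2 arrays had 67.8, 67.8 and 68.5. On the log2 scale the gap to the nearest array was 0.964 of the range of the group, above Dixon's 95% critical value for 4 samples. Chance marks about 1 group in 20 in this way, and 8 genes were looked at. The signal of this probe set was below the array median throughout.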

How the results depend on the processing

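The calls of Il2ra, Il2rb, Il15ra and Il7r were kept in every alternative apart from the fits within 1 title style. In these alternatives 3 members were called higher, or 4 with the replicate block (Il4ra added, 0.68, limma adjusted p = 0.0309). The count of members lower was 2, with Il9r added, after a second quantile normalization, without genes below the median signal (where Il15 gave no value), with centred arrays, and with the title style or the replicate number as a block; with each array left out it was 1 to 2. The replicate numbers are shared by the groups, and no label says whether they pair the samples. The deviations of same-numbered arrays correlated at 0.46, -0.30 and 0.31, and so few arrays cannot settle this. With the replicate block 554 genes were higher and 184 lower, and Il9r was called (-0.82, limma adjusted p = 0.0435). Over all genes, against 410 higher and 178 lower, the counts were 694 and 577 after a second quantile normalization, 134 to 517 and 65 to 152 with each array left out (down by over 1.5 times without untreated replicate 4 or IL2 replicate 2, 3 or 4, and for higher genes also without untreated replicate 3), 81 and 22 over arrays with the time in the title, and 0 and 0 over the others (2630 at an unadjusted p under 0.05). In the former 0 members were called lower, and in the latter 0 were called higher and 0 lower, with Il21r at -0.25 against 0.27 over all arrays. Fewer arrays enter these last fits; other causes were not tested. The test of the difference between title styles called 0 genes in all 5 of its fits. For Il15 the signal near the low end of the arrays limits what can be seen.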
